A study of Mus musculus with 6 samples.

Results

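The small leucine-rich proteoglycans are secreted matrix proteins with a core of leucine-rich repeats, most of them carrying glycosaminoglycan chains. The 10 genes described here were chosen by name as canonical members of that family: Fmod, Lum, Dcn, Bgn, Ogn, Aspn, Omd, Prelp, Kera and Epyc. Each had 1 row on the array under its own symbol, so the family is 10 of the 22300 named genes and 10 of the 35556 rows measured. Expression was compared between 3 samples of MSC21, a mesenchymal stem cell population grown from mouse bone marrow, and 3 samples of Clone 4L.1.4, a tertiary single-cell clone of that population. The comparison asks how the expression profile of a clone differs from that of the population it came from. Cells of both groups grew to confluence before total RNA was taken, and the labels record no treatment, strain, sex or age for either. The clone is 1 line. Nothing in the labels tells if samples of a group came from separate animals or thaws, so p-values cover only the spread between these samples.

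These proteins bind fibrillar collagen and set the width and spacing of its fibrils, and several also hold growth factors in the matrix. They fall into classes by sequence. Class I holds decorin, biglycan and asporin, class II fibromodulin, lumican, the proline- and arginine-rich protein PRELP, keratocan and osteoadherin, and class III osteoglycin and epiphycan. Decorin and biglycan carry chondroitin or dermatan sulfate, and most of class II carries keratan sulfate. In bone marrow stroma and bone they are made by cells of the fibroblast and osteoblast lineages. Biglycan and fibromodulin are also known from the niche of tendon stem cells.

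Most of the genes lie in clusters. Prelp and Fmod are neighbours on chromosome 1, Dcn, Lum, Kera and Epyc are neighbours on chromosome 10, Aspn, Omd and Ogn are neighbours on chromosome 13, and Bgn lies alone on X. RefSeq's promoter table for GRCm38.p6 held 8 of the 10 genes, all but Lum and Dcn. The 250 bases before the start site are shown for Fmod and Prelp, adjacent genes that changed in opposite directions, and for Ogn, the gene of the chromosome 13 cluster that changed. They lie at chr1:134037004-134037253 on the plus strand, chr1:133921402-133921651 on the minus strand and chr13:49607765-49608014 on the plus strand. Capitals mark matches to 6 motifs searched on both strands.
Fmod: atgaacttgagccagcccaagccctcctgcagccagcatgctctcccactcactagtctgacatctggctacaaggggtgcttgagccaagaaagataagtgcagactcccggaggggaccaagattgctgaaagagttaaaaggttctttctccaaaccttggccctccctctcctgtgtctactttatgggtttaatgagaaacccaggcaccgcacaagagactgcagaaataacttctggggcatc
Prelp: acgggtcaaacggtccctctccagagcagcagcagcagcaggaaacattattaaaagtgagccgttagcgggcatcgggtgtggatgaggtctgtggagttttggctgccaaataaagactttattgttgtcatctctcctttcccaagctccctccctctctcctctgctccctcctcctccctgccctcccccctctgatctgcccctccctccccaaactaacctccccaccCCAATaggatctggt
Ogn: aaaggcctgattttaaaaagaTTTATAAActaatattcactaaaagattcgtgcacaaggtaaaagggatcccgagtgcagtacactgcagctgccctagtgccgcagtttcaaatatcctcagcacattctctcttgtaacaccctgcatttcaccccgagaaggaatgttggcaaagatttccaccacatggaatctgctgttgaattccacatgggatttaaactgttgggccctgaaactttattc

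The motifs were the TATA box (TATAAA), the CCAAT box (CCAAT), the GC box (GGGCGG), the AP-1 site (TGANTCA), a Smad element (CAGACA) and the hypoxia response core (ACGTG). The Fmod window held none of these letters. Prelp had 1 CCAAT box, from 15 to 11 bases before the start, a motif present in 33.8% of the 32851 promoters of the table. Ogn had 2 overlapping TATA matches, 1 on each strand, between 229 and 222 bases before the start, and 12.4% of promoters held that motif. The GC box occurred in 32.7%, AP-1 in 6.75%, the Smad element in 17.1% and the hypoxia core in 16.6%. GC content was 51.2% in the Fmod window, 55.6% in that of Prelp and 42% in that of Ogn, beside a median of 52.4% over all promoters. A match describes letters only and is not a bound site.

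All 6 arrays had medians between 5.19 and 5.25 on the log2 scale. Levels correlated across rows at r = 0.9946 to 0.9958 within groups and 0.9749 to 0.9793 between them, and rows are not independent replicates. No array was a copy of another, as no pair within a group had equal values in more than 5 rows. Of 11 mesenchymal stromal markers, 3 were higher and 5 lower in the clone. The test is given further on, and 23.8% of all rows and 42.1% of rows above the median level passed it. Pdgfra, Pdgfrb, Prrx1, Itgb1, Vcam1 and Col1a1 stood well above the array medians in both groups, while Eng stood at 4.89 and 4.88, below them, and Thy1 and Nt5e fell to 4.61 and 4.55. Cd44 fell from 8.27 to 7.46 and Ly6a from 10.70 to 9.72. Ly6a lies on chromosome 15, whose 442 genes above the median level had a median difference of -0.50, and stood at -0.48 relative to it. Of 10 leukocyte markers 8 lay below the medians in both groups, Ptprc among them with means of 4.37 and 4.39. Lyz2 exceeded the medians in both groups (means 5.38 and 5.73), and Cd14 did so only before cloning (mean 5.37). All 6 endothelial and all 3 erythroid markers measured lay below the medians in both groups. Values are RMA log2 levels of the authors, relative to the rest of each array. In cultured cell samples of this kind, fewer cells making a transcript and less of it per cell cannot be told apart. A probe set's level also depends on its probes, so levels are compared between arrays for a gene and not between genes.

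One proteoglycan gene rose in the clone, 4 fell and 5 did not pass the test. Fmod rose 20.1-fold, while Lum fell 7.77-fold, Dcn 3.70-fold, Ogn 2.92-fold and Prelp 1.5-fold. The test was limma's moderated one, and a row passed where its p-value, adjusted over all rows by Benjamini-Hochberg, was under 0.05. Of all rows 23.8% passed, 12.8% as higher and 10.9% as lower, and 2.85% passed with a difference of at least 2-fold. Rows above the median level passed in 42.1% of cases. The groups of arrays did not overlap for 5 of the 10 genes, against 37.2% of rows. The median difference over the 10 genes was -0.02 log2 units, beside 0.004 over all rows, with genes called in both directions and 4 genes below the array medians in both groups. The plot of levels on each array shows these separations, and the plot of differences sets each gene beside its chromosome.

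**Figure D1:**
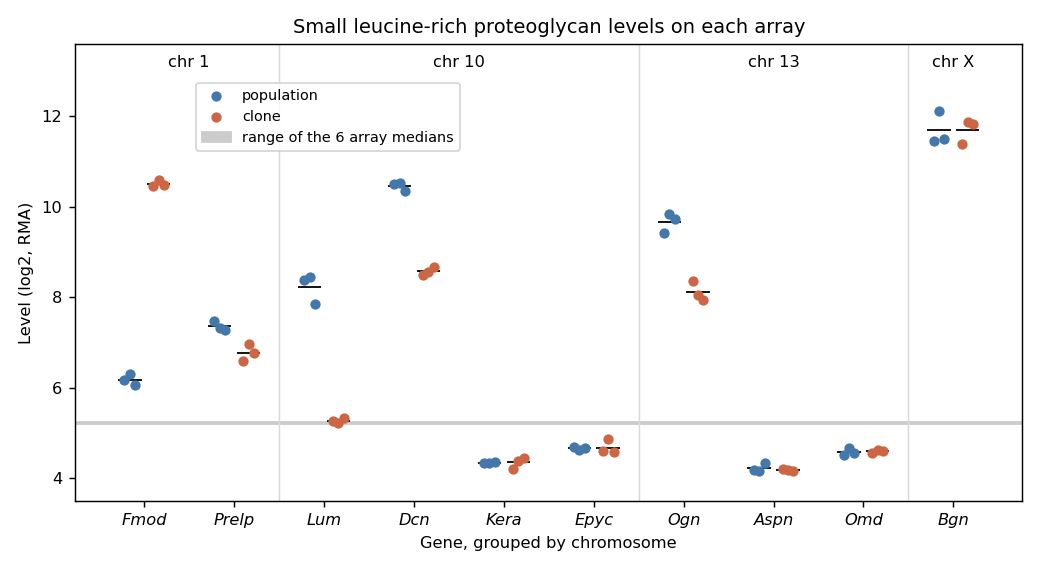
Level of each of the 10 genes on the log2 scale (vertical axis) on the 3 population arrays (blue) and the 3 clone arrays (orange), grouped by chromosome, with a black line at each group mean and a grey band for the range of the array medians, 5.19 to 5.25. Fmod moved from near 6.18 to 10.51, the points of Lum, Dcn, Ogn and Prelp lie lower in the clone, and Kera, Epyc, Aspn and Omd lie below the band in both groups.

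Fibromodulin, the class II member encoded by Fmod, binds collagen I at a site that lumican shares and modulates fibril assembly. Its levels were 6.17, 6.30 and 6.07 in the population and 10.45, 10.60 and 10.48 in the clone. Every clone array lay above every population array, and the gap was many times the range within either group. The difference was 4.33 ± 0.08 (log2, SE), with a 95% interval from 4.14 to 4.51 and an adjusted p of 5.83e-07 in limma. By size it ranked 10 among the 35556 rows.

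Lumican, encoded by Lum, is the class II proteoglycan that orders collagen fibrils in cornea and skin. It measured 8.39, 8.45 and 7.84 in the population and 5.27, 5.21 and 5.33 in the clone. The lowest population array, at 7.84, accounted for most of that group's range of 0.61 and still stood far above all clone arrays. The difference was -2.96 ± 0.16, with a 95% interval from -3.33 to -2.58 and a limma adjusted p of 3.84e-05. The clone mean of 5.27 lay close to the array medians, where RMA compresses differences, so the size of this fall is not exact.

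Keratocan, encoded by Kera, is the class II keratan sulfate proteoglycan of the cornea. Its levels ran from 4.33 to 4.36 in the population and from 4.21 to 4.44 in the clone, below the array medians. Osteoadherin, encoded by Omd, is made by osteoblasts and binds cells through an integrin. It ran from 4.52 to 4.67 and from 4.55 to 4.63. The groups overlapped for both genes, with differences of 0.005 (adjusted p = 0.977, limma) for Kera and 0.009 (adjusted p = 0.950, limma) for Omd.

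PRELP, a class II protein that anchors basement membranes to the collagen beneath them, had the smallest of the 4 falls. Prelp measured 7.48, 7.31 and 7.28 in the population and 6.59, 6.96 and 6.77 in the clone. The groups did not overlap, but the nearest arrays of the groups were closer to each other than the clone arrays' range of 0.37. The difference was -0.59 ± 0.11, with a 95% interval from -0.84 to -0.33 and a limma adjusted p of 0.00752. Without variance moderation the adjusted p was 0.0524, and the p-values of the authors' deposited table, adjusted over all rows, gave 0.0524 as well.

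Decorin, the class I proteoglycan with a single chondroitin or dermatan sulfate chain, binds collagen I and TGF-beta and can engage the receptors Egfr and Met. Dcn measured 10.51, 10.53 and 10.34 in the population and 8.5, 8.55 and 8.66 in the clone. Both groups were tight, with ranges of 0.19 and 0.15, and were widely separated. The difference was -1.89 ± 0.07, with a 95% interval from -2.06 to -1.72 and a limma adjusted p of 1.11e-05.

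Biglycan, the class I relative of decorin that can signal through Toll-like receptors when released from the matrix, did not pass the test. Bgn measured 11.45, 12.12 and 11.51 in the population and 11.38, 11.88 and 11.83 in the clone. The second population array and the first clone array stood apart from their groups, in opposite directions, and the groups overlapped fully. The difference was 0.005 ± 0.21 (adjusted p = 0.991, limma). Its 95% interval ran from -0.50 to 0.51, which covers a change of up to 1.41-fold lower or 1.42-fold higher. Bgn was unusually variable within groups: its pooled SD of 0.33 exceeded that of 99.2% of the 500 rows nearest to it in level, whose median SD was 0.058. Ogn, at 0.22 beside a median of 0.091, exceeded 93.2% of its own 500 rows, and Dcn, at 0.09, exceeded 57.2%.

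Asporin, the class I member with an aspartate-rich start and no glycosaminoglycan chain, restrains TGF-beta signalling. Aspn ran from 4.15 to 4.33 in the population and from 4.16 to 4.20 in the clone, below the array medians throughout. Its difference was -0.037 ± 0.06 (adjusted p = 0.766, limma), with an interval from -0.18 to 0.11.

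Osteoglycin, also called mimecan, is a class III member found in bone, cornea and vessel walls. Ogn measured 9.41, 9.84 and 9.72 in the population and 8.36, 8.05 and 7.93 in the clone. The groups did not overlap, and the lowest population array stood about 1 log2 unit above the highest clone array. The difference was -1.54 ± 0.15, with a 95% interval from -1.90 to -1.19 and a limma adjusted p of 0.000454. Epiphycan, the class III proteoglycan of growth plate cartilage, ran from 4.63 to 4.68 in the population and from 4.57 to 4.86 in the clone. Epyc differed by 0.012 ± 0.09 (adjusted p = 0.955, limma), and the groups overlapped.

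**Figure D2:**
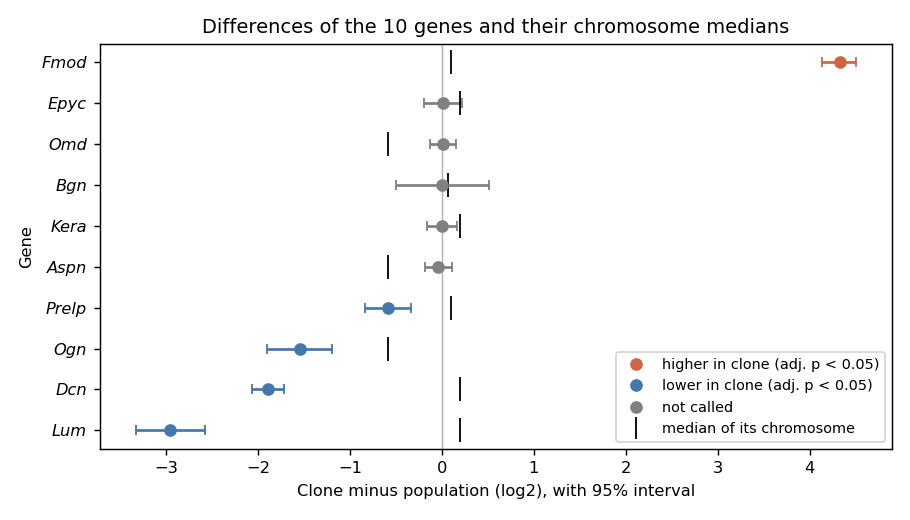
Difference of each gene, clone minus population on the log2 scale (horizontal axis), with its 95% interval. A black tick marks the median difference of the genes above the median level on the same chromosome. Fmod stands alone at 4.33, Lum, Dcn, Ogn and Prelp lie below 0 with intervals that exclude it, and the interval of Bgn is the widest of the 5 genes that were not called.

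The estimated falls differed in size, from -0.59 for Prelp to -2.96 for Lum, and pairs of genes were set against each other. Within each array Lum was set against Dcn as a log2 ratio, which ran from -2.50 to -2.08 in the population and from -3.35 to -3.23 in the clone. The change of Lum minus that of Dcn was -1.07, without overlap between the groups (exact two-sided permutation p = 0.1, n = 3 arrays a group, the smallest the design allows). The Prelp to Dcn ratio separated the groups as well, with the change of Prelp less negative by 1.30 (exact permutation p = 0.1). The Ogn to Dcn ratio overlapped between groups, with a gap of 0.34 between the changes (exact permutation p = 0.3). Fmod against its neighbour Prelp gave 4.91 (exact permutation p = 0.1). These 4 pairs were chosen after the values were seen, the last as a gene that rose beside one that fell. Their adjusted permutation p-values were 0.133, 0.133, 0.3 and 0.133 in the order given. With 0.1 as the smallest possible p, this test could not show that any pair changed unequally.

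The neighbours of the 3 clusters were set beside the members. On chromosome 1, whose 641 genes above the median level had a median difference of 0.10, Fmod rose next to Prelp, which fell. On the other side of Prelp lies Optc, which encodes the eye proteoglycan opticin and had a difference of -0.23 (adjusted p = 0.0272, limma) at levels of 5.06 and 4.83 below the array medians. Atp2b4, a calcium pump gene beyond Optc, fell by 1.72, and Btg2, on the far side of Fmod, did not pass (-0.13).

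On chromosome 10, with a median of 0.20 over 537 genes, Dcn and Lum stood at -1.89 and -2.96 between neighbours that did not pass. Btg1, an antiproliferative gene on the Dcn side, had a difference of 0.10 and Eea1 beyond it one of 0.34, neither passing, while Nudt4, further out, fell by 0.95. Kera and Epyc, on the Lum side, were at the low end, and Atp2b1, a calcium pump gene past them, rose by 0.43. Relative to the chromosome median Dcn stood at -2.09 and Lum at -3.16.

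Chromosome 13 differed, as its 423 genes above the median level had a median of -0.58. Nol8 and Iars, the genes next to Ogn, fell by 0.68 and 1.03, so Ogn at -1.54 lay among falling neighbours. Relative to the chromosome median Ogn stood at -0.97 and still passed. What part of its fall belongs to the chromosome was not tested. Aspn, Omd and Ecm2, a related matrix gene at 4.76 in both groups, lay at the low end of the arrays, at which a further fall cannot be measured. Bgn, on X with a median of 0.07 over 378 genes, had 2 neighbours, Haus7 and Atp2b3, that did not pass either. The plot in gene order gives the neighbours of the 3 clusters.

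**Figure D3:**
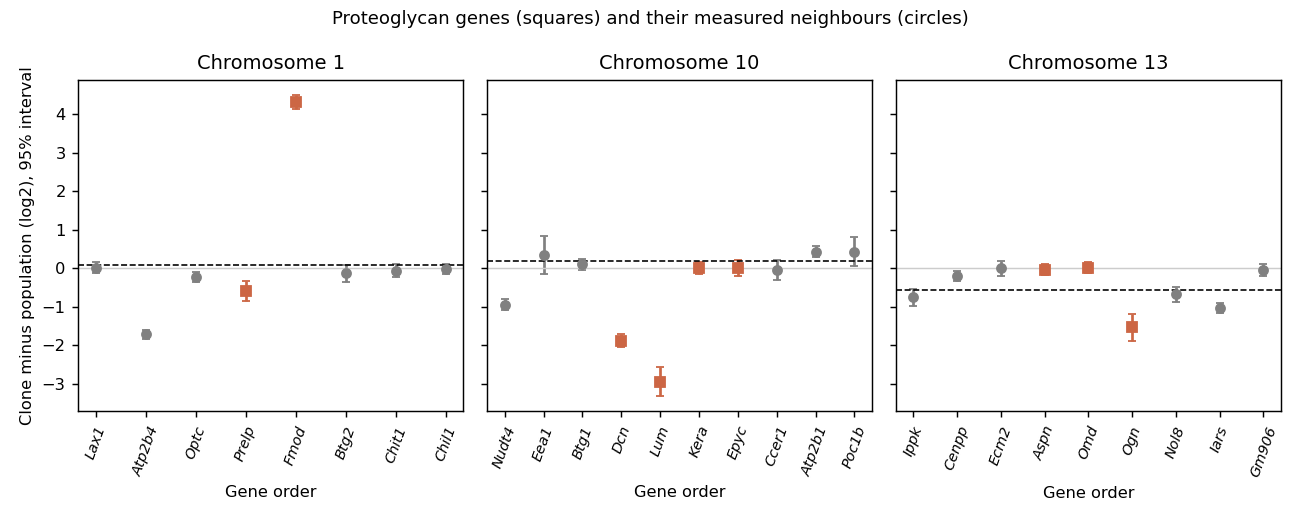
Difference, clone minus population on the log2 scale with 95% intervals (vertical axis), of the proteoglycan genes (orange squares) and the nearest measured protein-coding genes (grey circles) in RefSeq order on chromosomes 1, 10 and 13. A dashed line marks each chromosome's median difference over genes above the median level, 0.10, 0.20 and -0.58. Fmod stands at 4.33, Dcn and Lum fall side by side, and Ogn falls beside Nol8 and Iars.

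The genes nearest in pattern to the members with the largest differences were found by the root mean square distance between the 6 array values, each gene centred on its own mean. For Fmod they were Hpgd, which degrades prostaglandins, at a distance of 0.10 log2 units, then the imprinted genes H19 at 0.13 and Mest at 0.15. For Lum they were Slc38a4 at 0.14 and Slc1a1 at 0.15, both amino acid transporters, and Hpse, the heparanase gene, at 0.19. Hpse measured 7.81, 7.82 and 7.77 in the population and 4.99, 4.75 and 5.07 in the clone. For Dcn they were Alkal1, which encodes a ligand of the ALK receptor, and Dhrs3, a retinal reductase gene, at 0.05 and Bnip3, a mitophagy gene, at 0.06. With 2 groups this likeness mostly reflects an equal difference between them.

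Other small leucine-rich proteoglycans gave 2 higher and 2 lower of 8 measured, and 6 of the 8 lay below the array medians in both groups. The count of 4 calls became 2 without clone array 1 and 2 without clone array 3, and was 1 at an adjusted p under 0.01 or with at least 1.5-fold. Podnl1, a podocan relative, rose from 8.39 ± 0.05 to 9.13 ± 0.06 (mean ± SD, n = 3), a difference of 0.74. Podn, podocan itself, had a difference of 0.30 at low levels of 4.75 and 5.05. Tsku, the tsukushi gene, fell by 0.34 from 6.10, and Ecm2 did not pass (adjusted p = 0.998, limma). As for every list that follows, 23.8% of all rows and 42.1% of rows above the median level passed, and the median of all rows was 0.004. Lists differ in how many of their genes lie above that level.

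Enzymes that start and build the sugar chains split in both directions. Of 9 genes for the linker, its regulators and heparan sulfate extension, 3 rose and 3 fell, Ext1 among the latter, with a median of -0.13. Xylt1 and Xylt2, the xylosyltransferases that begin each chain on the core protein, rose by 1.16 ± 0.09 and 0.84 ± 0.10. B4galt7, which adds the galactose after xylose, fell by 0.91 ± 0.07, but lies on chromosome 13 and stood at -0.33 relative to its median. Ext1, which extends heparan sulfate and not the chains of this family, fell by 0.99, on chromosome 15, whose median was -0.50, and stood at -0.49 relative to it.

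Of 16 chondroitin and dermatan sulfate enzymes, 5 rose and 3 fell, with a median of 0.00. Dsel and Dse, the epimerases that turn chondroitin into dermatan sulfate, had differences of 0.93 ± 0.07 and 0.47 ± 0.06, and Chsy1, a chain synthase, one of 0.53. The sulfotransferase genes Ust and Chst11 fell by 0.99 ± 0.07 and 0.85 ± 0.06. Chst15, another sulfotransferase, rose by 0.42. Relative to the medians of their chromosomes Dse stood at 0.27 and Chst15 at 0.26.

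Of 8 keratan sulfate enzymes, 1 rose and 3 fell, with a median of -0.26. Chst1, the galactose sulfotransferase of keratan sulfate, went from 5.77 ± 0.28 to 4.52 ± 0.21, a difference of -1.25 ± 0.16 that is inexact at its low clone level. B4galt1 and B4galt4, galactosyltransferases, had differences of -0.46 and -0.44, or -0.26 and -0.24 relative to their chromosomes, and B4galt4 lay below the array medians in both groups. Fut8, the core fucosyltransferase, rose by 0.52. Sulfate supply and tyrosine sulfation genes gave 3 higher and 3 lower of 9, with a median of -0.12. Papss2 and Papss1, which make the sulfate donor, fell by 0.84 and 0.69. The size for Papss2 is inexact at a clone level of 4.94, and Papss1 lies on chromosome 3, whose median was -0.42, and stood at -0.27 relative to it. Slc26a2, the sulfate importer, rose by 0.53, and the tyrosine sulfotransferase gene Tpst2 fell by 0.45.

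**Figure D4:**
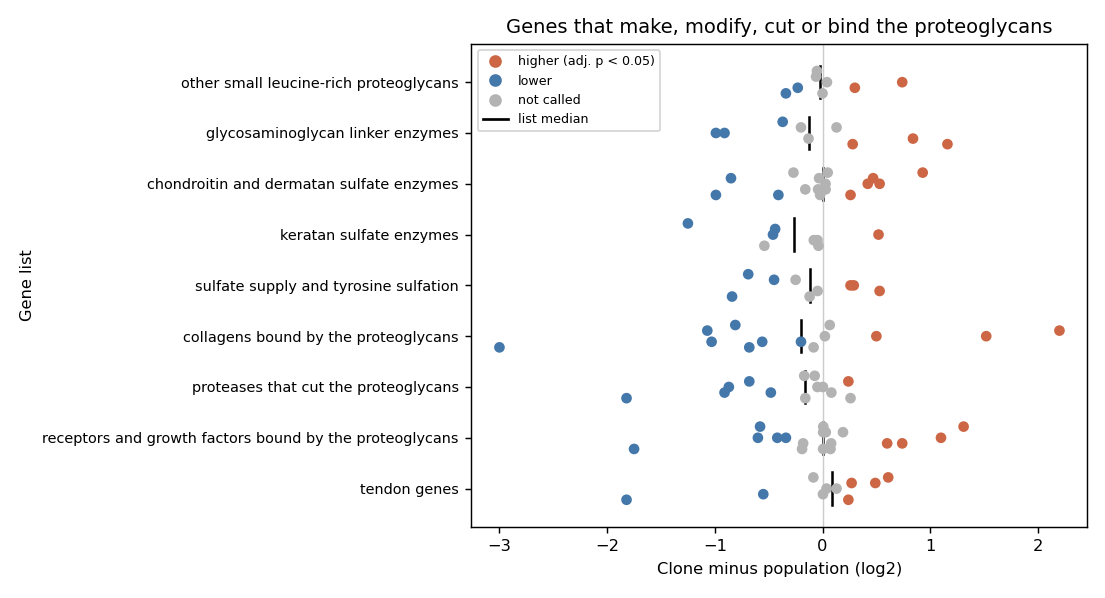
Difference, clone minus population on the log2 scale (horizontal axis), of each measured gene of the 9 lists (vertical axis), coloured by call, with a black line at each list median. Every list holds genes called in both directions, and Col11a1 at -3.0 and Col6a2 at 2.20 are the extremes.

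Of 13 collagen genes whose products bind these proteoglycans, 3 rose and 7 fell, with a median of -0.20. Col11a1 went from 8.44 ± 0.12 to 5.44 ± 0.06, a difference of -3.0. It lies on chromosome 3, whose median was -0.42, and stood at -2.58 relative to it. The size is inexact, as the clone level lay close to the array medians. Col6a2 and Col6a1, chains of the beaded-filament collagen VI, rose by 2.20 and 1.52, while Col6a3, a further chain of it, fell by 0.81. Col3a1 fell by 1.07. Col1a1 and Col1a2, the chains of the main fibril, differed by -0.083 (adjusted p = 0.413, limma) and -0.20 (adjusted p = 0.034, limma).

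Of 13 proteases and their enhancers, 1 rose and 5 fell, with a median of -0.16. Mmp13, a collagenase that also cuts fibromodulin, went from 8.26 ± 0.32 to 6.44 ± 0.07. The aggrecanase genes Adamts4 and Adamts5 fell by 0.91 and 0.87 and Mmp2 by 0.68. Bmp1, the proteinase that removes the biglycan propeptide, differed by 0.26 and did not pass (adjusted p = 0.0636, limma). Pcolce, its enhancer for procollagen, was the gene that rose, by 0.24, or 0.03 relative to its chromosome.

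Of 18 receptors and growth factors that these proteins bind, 4 rose and 5 fell, with a median of 0.01. Ccn4, a matricellular protein bound by decorin and biglycan, fell by 1.75 ± 0.10. Its gene lies on chromosome 15, whose median was -0.50, and stood at -1.25 relative to it. Bmp4 and Tgfb3 rose by 1.31 and 1.10, Tgfb2 by 0.74, and Tlr4, a receptor for soluble biglycan, by 0.60. Met and Egfr, receptors that decorin can engage, differed by -0.58 and -0.34. Of 10 tendon genes, 4 rose and 2 fell, with a median of 0.08. Scx, the tendon transcription factor scleraxis, fell from 6.56 ± 0.12 to 4.73 ± 0.09. It lies on chromosome 15 and stood at -1.32 relative to the median of -0.50. Mkx, mohawk, fell by 0.55, from 5.35 to 4.80. Both clone levels lay below the array medians, so the sizes are inexact, while Egr2 and Egr1 rose by 0.61 and 0.49.

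Markers of other cell types were counted in the same way. Of 4 chondrocyte markers, 3 were higher in the clone, Acan from 4.56 to 5.25, Col2a1, also in the collagen list, from 6.31 to 6.81 and Matn3 from 4.27 to 4.54. Matn3 lay below the array medians in both groups. The chondrocyte count was 2 without population array 1, 2 or 3 and without clone array 2 or 3. With at least 1.5-fold it was 1, as was the adipocyte count. The mean level of the list ran from 5.0 to 5.04 over the population arrays and from 5.36 to 5.42 over the clone arrays, and Epyc and Chad, cartilage proteoglycans, lay at the low end in both groups. Of 4 adipocyte markers, 3 were higher, with Plin1 from 4.45 to 5.52 and a list mean from 4.35 to 4.49 in the population and from 4.85 to 4.98 in the clone, still below the array medians. Col9a1 and Lep were the members of these lists that did not pass. Of 10 leukocyte markers 1 was higher, Lyz2 from 5.38 to 5.73, and 1 lower, Cd14 from 5.37 to 4.77, beside 23.8% of all rows. The other 8 lay below the array medians in both groups, and the count of calls was 1 without clone array 3. No endothelial or erythroid marker measured passed. The part of the chondrocyte and adipocyte markers in the result was not tested.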

How the data were processed

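Per the labels' protocols, biotin-labelled cRNA from TRI reagent RNA was hybridised to Affymetrix arrays; which array type is not given in the sources used here. Levels were deposited by the authors as log2 values, for which the submitters' processing notes name RMA and Partek without versions. RMA equalises the arrays' distributions, which hides any change in total RNA per cell. The authors' deposited table holds, per the file headers, gene symbols, unadjusted p-values and signed linear folds (a score). Its log2 folds matched the differences computed here to within 7.8e-05. It has 6 further columns whose names fit no label, left out here.

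All 35556 rows were fitted with limma 3.58.1 in R 4.3.3 (lmFit and eBayes, with 4 residual and 2.72 prior degrees of freedom), two-sided, adjusted by Benjamini-Hochberg. On simulated arrays with 200 changed rows, the fit found 0 of 50 changes of 0.25 log2 units and 30 of 50 of 0.5. It found 46 of 50 changes of 1.0 and 50 of 50 of 2.0, with 4 false calls. Far more rows passed in the real data, so these shares need not hold there. Adjusted p-values are limma's unless named otherwise. The number of arrays limits the precision. Of 25123 rows with a symbol, 18920 matched a current RefSeq symbol (GRCm38.p6), 3889 an older one and 2314 none; the row of highest mean stood for a gene.

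Named were all members, up to 4 called genes per list, Ecm2 and Optc, up to 3 neighbours a side, and the 3 nearest in pattern to the members with the 3 largest differences; other list genes named were added after their values were seen. The members and lists were chosen with earlier results of these data known.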

Additional observations from a re-analysis of the deposited data

How the results depend on the processing

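The 18 alternatives were a block by sample number, repeated quantile normalization, centred arrays or chromosomes, only rows above the median, robust trended or no moderation, array weights, an adjusted p under 0.01, at least 1.5-fold, gene means over rows, the p-values of the authors' deposited table, and each array left out. Fmod, Lum, Dcn and Ogn kept direction and call in all 18, between 4.23 and 4.39, -3.16 and -2.85, -2.09 and -1.85, and -1.67 and -0.97. Prelp kept its direction in 18 and its call in 16, missing it at -0.59 without moderation and with the authors' deposited p-values. These last settings gave it the same adjusted p and are not separate checks. Each member had 1 row, so gene means over rows left its levels unchanged. The 18 alternatives are therefore not independent. Of the 5 genes not called, none passed except with chromosomes centred, where adding back the median of chromosome 13 put Aspn at 0.54 and Omd at 0.59 past the threshold, 3 genes higher in all. Both lie at the low end of the arrays, so this setting adds a difference that was not measured. Signs near 0 turned for Bgn (-0.006 with quantile normalization, -0.032 with arrays centred, -0.018 with weights, -0.068 with chromosomes centred), Omd (-0.029 with arrays centred), Kera (-0.033 with arrays and -0.20 with chromosomes centred) and Epyc (-0.026 with arrays centred, -0.012 with weights, -0.19 with chromosomes centred). Leaving out single arrays gave -0.12 to 0.22 for Bgn, -0.074 to 0.014 for Aspn, -0.023 to 0.051 for Omd, -0.043 to 0.072 for Kera and -0.083 to 0.063 for Epyc. Changed rows numbered 8446, but 5252 at an adjusted p under 0.01 and 3105 with at least 1.5-fold. The 4 low genes could not be tested with only rows above the median.

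Same-numbered samples did not deviate together from their group means (r = -0.1843, -0.1393 and -0.03526), so the numbers were not taken as pairs. With the sample number as a replicate block 6669 rows and the same number of members, 5, were called.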
